A study of Homo sapiens with 6 samples.

Results

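Interferon-induced antiviral effector genes encode the proteins that carry out the antiviral programme of a cell, as distinct from the sensors that detect a virus and the factors that relay the interferon signal. The list held 45 genes, taken by gene symbol, and 44 of them were among the 17911 genes of the table of normalised read counts. CMPK2, which makes nucleoside triphosphates in mitochondria, was the exception and is not analysed here. All 44 passed the filter of a mean of at least 10 over the 6 libraries and were tested.

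RNA-seq was done on LX-2, an immortalised line of human hepatic stellate cells and a culture model of the matrix-producing cells of the liver. A group of 3 mutant libraries carried a mutation in exon 3 of MPI (labelled MPI MT) and was compared with 3 wild-type (WT) libraries of the same line. MPI encodes mannose phosphate isomerase, which links glycolysis to the mannose supply of protein glycosylation. Both groups were kept in the same serum-containing medium, and the labels name no interferon, virus or other agent. The sources used here do not say how the mutation was made, whether the mutant line is a single clone, or whether the replicates were grown separately. The p-values thus cover only the library-to-library spread, which could be technical.

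Type I and type III interferons signal through JAK kinases to a complex of transcription factors, which binds interferon-stimulated response elements (ISRE) in gene promoters and switches on a large set of genes. Many of these genes also have a low tonic expression in cells that have met no virus, as is known of fibroblasts. The effectors work on many fronts: some bind or cut foreign RNA, some block virus entry or release, some conjugate the ubiquitin-like protein ISG15, and some modify proteins with ADP-ribose.

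Reads recovered over the listed genes numbered 27037905 to 34970840 per library. MPI itself (chromosome 15, 74890005 to 74902219 on GRCh38) had 1051, 978 and 1035 normalised reads in the mutant libraries, against 1292, 1283 and 1256 in the WT libraries, so it fell in the mutant (log2 fold change -0.32 ± 0.07, here and below ± SE, limma adjusted p = 0.00648). The counts cover the whole gene and do not show the sequence of the mutated exon. Of 10 stellate or fibroblast markers, 9 were listed, with a summed level of 185451 to 216009 in the mutant libraries and 163781 to 171906 in the WT libraries; desmin (DES) was not among the listed genes. VIM and COL1A1 made up most of that sum, and single markers went both ways: TIMP1 (log2 fold change 0.94 ± 0.12) and VIM (0.27 ± 0.08) passed the test as higher in the mutant, and COL1A2 (-1.37 ± 0.38), ACTA2 (-0.97 ± 0.10) and PDGFRB (-0.47 ± 0.15) as lower. The calls of VIM, COL1A2 and PDGFRB were lost under 5, 6 and 7 of the 19 alternatives described below, while those of TIMP1 and ACTA2 held under all. Of 6 leukocyte markers 3 were listed, and their summed level was 280.4 to 309 in the mutant libraries and 495 to 577 in the WT libraries. That difference lay in CD14 (-1.72 ± 0.11), while CD68 (0.74 ± 0.24) was higher in the mutant and PTPRC (-0.08 ± 0.28) did not pass. The CD68 call was lost under 6 of the 19 alternatives. Of 4 markers of plasmacytoid dendritic cells, the main interferon producers of blood, CLEC4C and LILRA4 were not among the listed genes, IL3RA did not pass (0.08 ± 0.44), and TCF4, which is not specific to these cells, was higher in the mutant (1.17 ± 0.07). Of hepatocyte, epithelial and endothelial markers, 1 of 6, 2 of 4 and 4 of 5 were listed. Those past the test were the hepatocyte marker SERPINA1, lower (-1.07 ± 0.20), and the endothelial marker PECAM1, higher (2.03 ± 0.16). The part of such markers in the results was not tested. In bulk RNA, fewer cells expressing a gene and less RNA per cell cannot be told apart.

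Most of the effector genes were lower in the mutant cells. Of the 44 tested, 32 fell and 2 rose, while 10 did not pass the test (limma-trend on log2(normalised read count + 1), Benjamini-Hochberg adjusted p under 0.05 over all 17893 genes tested). Among all genes tested 16.6% fell and 16.0% rose. The members were chosen with earlier results of these data known, so their counts are not independent of the values. The falls covered every subfamily except the SAMD9 pair, and 16 members fell by more than 1 on the log2 scale, as did 5.2% of all genes. The median log2 fold change over the 44 members was -0.67, beside -0.0031 over all genes tested. In 33 members all mutant libraries lay below all WT libraries, and in 2 all lay above; such a separation was seen in 23.6% and 23.1% of all genes. With both libraries numbered 1 left out, which stood apart in each genotype, 37 members fell and 2 rose, against 26.8% and 27.9% of all genes; the added falls were those of IFIT5, EIF2AK2, ADAR, ISG20 and IRF1. With the replicate number as a block, 35 fell and 2 rose, against 24.6% and 25.1% of all genes.

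**Figure D1:**
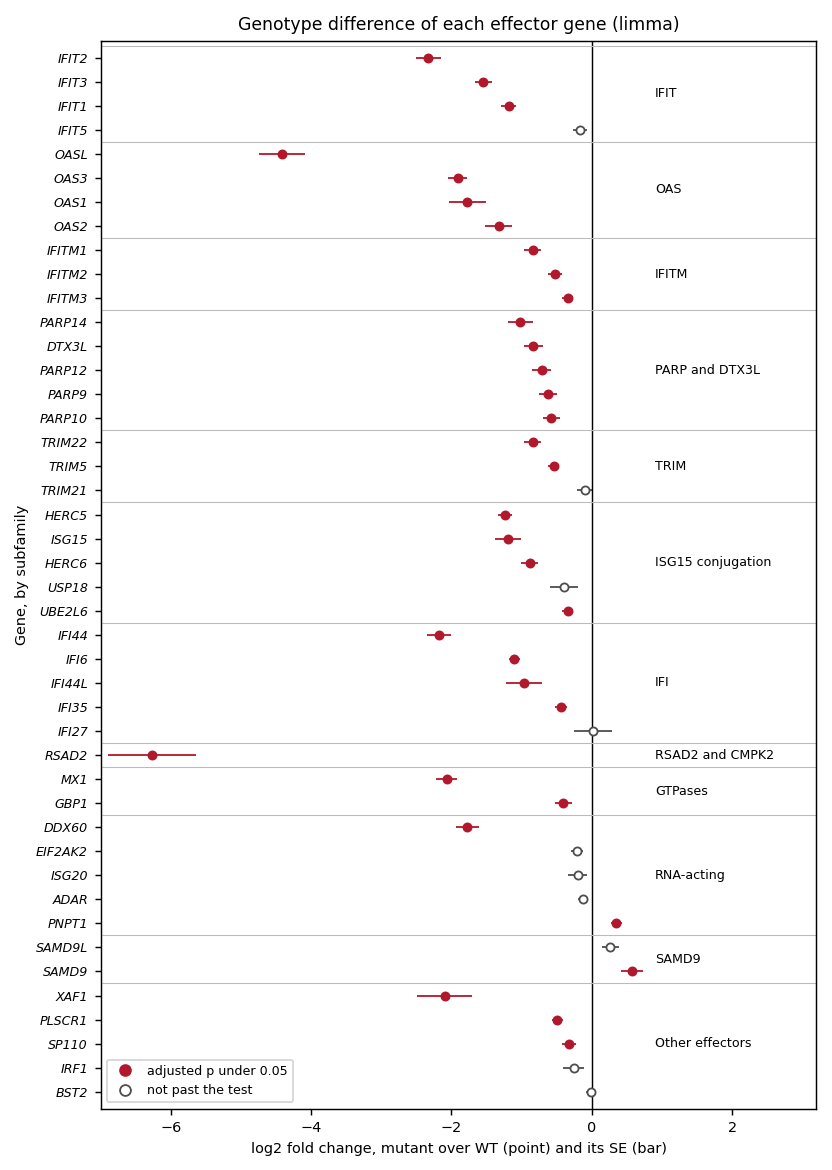
Log2 fold change, mutant over WT, of the 44 tested effector genes (x axis) by subfamily (y axis); points are limma estimates, bars are SE, and filled points have an adjusted p under 0.05. Nearly all points lie left of 0, with RSAD2 (-6.27) and OASL (-4.41) farthest out, and only PNPT1 and SAMD9 are filled on the right.

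Of the IFIT proteins, IFIT1 and IFIT5 bind foreign RNA by its 5′ end. The family lies together on chromosome 10 within 137 kb, and 3 of its 4 members fell. IFIT2 (ENSG00000119922, chromosome 10, 89283694 to 89309276) had 272, 205 and 192 normalised reads in the mutant libraries, against 1003, 1408 and 977 in the WT libraries. The groups were far apart, with the WT mean 5.06 times the mutant mean (log2 fold change -2.33 ± 0.17, limma adjusted p = 4.24e-05). IFIT3, which binds IFIT1 and stabilises it, had 639, 589 and 616 in the mutant and 1544, 2169 and 1730.2 in the WT libraries (-1.55 ± 0.12, limma adjusted p = 5.12e-05). IFIT1, which binds capped RNA that lacks 2′-O-methylation, had 485, 562 and 491 in the mutant and 1037, 1346 and 1136 in the WT libraries (-1.19 ± 0.11, limma adjusted p = 0.00014). In all of these genes WT replicate 2 was the highest of the 6 libraries. IFIT5, which binds RNA with a 5′ triphosphate, had 782, 871 and 866 in the mutant and 829, 969.8 and 1054 in the WT libraries. Its groups overlapped and it did not pass (log2 fold change -0.17 ± 0.10, limma adjusted p = 0.226), but it did in limma with the replicate block (adjusted p = 0.0427), though not in edgeR with the block.

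The promoters of these neighbours are shown because members with the same response element had different sizes of change. RefSeq promoter sequences (GRCh38.p14, 250 bases before to 50 after the gene start) were at hand for 38 of the 45 members; entries for IFIT2, OAS2, OASL, IFITM2, PARP10, TRIM22 and USP18 were missing. The core of the ISRE was searched on both strands as GAAA, any 2 bases and GAAA again. The lines below give 30 bases around a match, 5′ to 3′ on the strand of the gene, with the match in capitals. Where the match lies on the other strand it reads TTTC, 2 bases, TTTC.
IFIT1 (chr10:89392497-89392526, plus strand): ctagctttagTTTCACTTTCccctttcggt
IFIT1 (chr10:89392510-89392539, plus strand): cactttccccTTTCGGTTTCcctaggtttc
IFIT3 (chr10:89327831-89327860, plus strand): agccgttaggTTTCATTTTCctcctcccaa
IFIT3 (chr10:89327865-89327894, plus strand): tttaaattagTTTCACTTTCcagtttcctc
IFIT5 (chr10:89414513-89414542, plus strand): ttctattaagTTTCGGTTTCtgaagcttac
IFIT5 (chr10:89414539-89414568, plus strand): ttacgtttagTTTCGATTTCttaagtttca
IFIT5 (chr10:89414554-89414583, plus strand): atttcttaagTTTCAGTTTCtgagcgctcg
IFIT1 and IFIT3, which fell, held 2 matches each, and IFIT5, which did not pass the test, held 3. Over all 38 members 65.8% of promoters held a match, beside 2.91% of the 11372 promoters of tested genes. The share was 69.2% of the 26 members that fell and 66.7% of the 9 that did not pass; 2 promoters belong to members that rose and 1 to CMPK2. The gamma-activated site, a motif of the interferon-gamma response, was searched as TTCNNNGAA and was found in 26.3% of member promoters and 6.45% of promoters of tested genes; in 3 member promoters the 2 motifs overlapped. A match is a stretch of letters, not a shown binding site.

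All 4 genes of the OAS family fell. OAS1, OAS2 and OAS3 make 2′-5′-linked oligoadenylates when they meet double-stranded RNA, which activates the ribonuclease RNase L, whereas OASL lacks that activity and enhances signalling by the RNA sensor RIG-I. OASL (ENSG00000135114, chromosome 12, 121019111 to 121039242) had 13.9, 8.44 and 9.21 normalised reads in the mutant libraries, against 152, 359 and 249.6 in the WT libraries. Its WT mean was 24.1 times its mutant mean (-4.41 ± 0.33, limma adjusted p = 4.05e-05), and the WT libraries also differed widely among themselves. OAS3 was the most abundant, with 771, 545 and 531 in the mutant and 2283, 2269 and 2316 in the WT libraries (-1.91 ± 0.13, limma adjusted p = 3.07e-05). OAS2 had 99.3, 62.8 and 69.6 in the mutant and 174, 197 and 206 in the WT libraries, and OAS1 had 24.1, 15.00 and 25.6 in the mutant and 61.7, 71.02 and 93.5 in the WT libraries. OAS2 changed by -1.33 ± 0.19 and OAS1 by -1.77 ± 0.27 on the log2 scale (limma adjusted p = 0.00109 and 0.00149). The WT libraries hardly differed in OAS3, and in OAS2 and OAS3 mutant replicate 1 was the highest of the mutant libraries. OAS1, OAS3 and OAS2 lie side by side within 105 kb of chromosome 12, and OASL lies elsewhere on it. The OAS3 promoter held 2 ISRE cores.
OAS3 (chr12:112938321-112938350, plus strand): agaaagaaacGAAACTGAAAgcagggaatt
OAS3 (chr12:112938452-112938481, plus strand): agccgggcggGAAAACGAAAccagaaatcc

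RSAD2 encodes viperin, a radical SAM enzyme that turns CTP into a chain terminator of viral RNA polymerases, and it was the member with the largest fall. RSAD2 (ENSG00000134321, chromosome 2, 6865806 to 6898239) had 0.928, 5.63 and 0 normalised reads in the mutant libraries, against 178, 258 and 124 in the WT libraries. These values rest on 7 reads in all mutant libraries together and 535 reads in the WT libraries, so the mutant levels lay at or near 0. The log2 fold change was -6.27 ± 0.63 (limma adjusted p = 0.000197), and its size depends on few reads: it was -7.02 without mutant replicate 2, -5.65 without mutant replicate 3 and -4.76 with a pseudocount of 5. Its RefSeq promoter is shown whole, as the member of largest fall, beside those of IFI44 and XAF1, which also fell by over 2, and of ADAR, the most abundant member that did not pass. Capitals mark the ISRE core and, in addition, GAAANGAAA, with a spacing of 1 base, on either strand; the second motif was chosen after the RSAD2 sequence had been seen.
RSAD2 (chr2:6865635-6865934, plus strand): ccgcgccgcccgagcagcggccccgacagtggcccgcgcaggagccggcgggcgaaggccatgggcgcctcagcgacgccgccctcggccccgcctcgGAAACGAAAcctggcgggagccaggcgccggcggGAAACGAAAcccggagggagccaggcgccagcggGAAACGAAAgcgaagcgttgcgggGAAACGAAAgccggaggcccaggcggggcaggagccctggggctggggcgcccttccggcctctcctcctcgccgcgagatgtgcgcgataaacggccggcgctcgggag
IFI44 (chr1:78649539-78649838, plus strand): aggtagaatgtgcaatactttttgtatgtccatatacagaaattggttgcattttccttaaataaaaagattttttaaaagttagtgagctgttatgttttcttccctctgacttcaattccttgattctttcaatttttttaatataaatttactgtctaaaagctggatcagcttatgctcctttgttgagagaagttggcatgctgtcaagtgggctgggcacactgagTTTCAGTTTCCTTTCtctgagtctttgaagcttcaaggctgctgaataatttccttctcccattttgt
XAF1 (chr17:6755796-6756095, plus strand): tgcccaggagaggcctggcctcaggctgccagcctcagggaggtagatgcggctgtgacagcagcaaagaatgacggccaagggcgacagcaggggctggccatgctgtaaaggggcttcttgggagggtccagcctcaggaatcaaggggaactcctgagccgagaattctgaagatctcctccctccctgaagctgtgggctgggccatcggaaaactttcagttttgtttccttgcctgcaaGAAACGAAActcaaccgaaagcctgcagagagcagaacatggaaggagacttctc
ADAR (chr1:154627948-154628247, minus strand): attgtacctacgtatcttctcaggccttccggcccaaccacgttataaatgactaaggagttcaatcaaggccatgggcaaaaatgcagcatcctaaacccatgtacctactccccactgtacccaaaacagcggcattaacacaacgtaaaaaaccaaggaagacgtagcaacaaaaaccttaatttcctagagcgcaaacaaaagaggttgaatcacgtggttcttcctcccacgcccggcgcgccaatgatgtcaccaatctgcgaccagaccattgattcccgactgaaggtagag
The RSAD2 window held no ISRE core but 4 copies of GAAANGAAA, and XAF1 held 1 copy of it. IFI44 held 1 match of each, which overlapped, and the ADAR window held none of either. Each gene was searched at a single annotated start, which for RSAD2 and ADAR lies near the outer 5′ end of the gene. Other starts were not searched, so these windows do not show that the genes lack a motif. The shorter motif was found in 36.8% of member promoters, beside 2.67% of the promoters of tested genes. It was found in 12 of the 26 of members that fell, in both of the 2 that rose and in none of the 9 that did not pass. The 12 include RSAD2, whose sequence led to the motif, so this split is not independent of its choice. The 2 motifs overlapped in 7 member promoters.

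**Figure D2:**
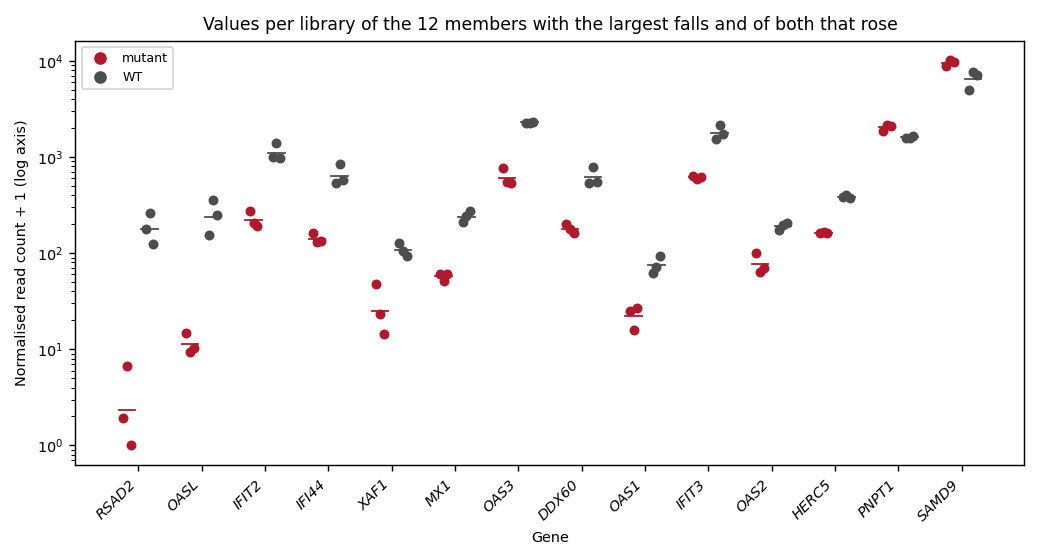
Normalised read count + 1 (y axis, log scale) in each library of the 12 members with the largest falls and of the 2 that rose (x axis); each point is a library, mutant in red on the left and WT in grey on the right, and lines are means on the log scale. Mutant and WT points do not overlap in any of these genes, and the mutant libraries of RSAD2 lie at the bottom of the scale.

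The large GTPases both fell. MX1, a dynamin-like GTPase that traps the nucleocapsids of influenza and other viruses, had 59.4, 50.6 and 59.4 normalised reads in the mutant and 209, 242 and 272 in the WT libraries. Its WT mean was 4.27 times its mutant mean (-2.07 ± 0.15, limma adjusted p = 3.86e-05). GBP1, a guanylate-binding protein that coats intracellular bacteria and parasites, had 1452, 1522 and 1354 in the mutant and 1574, 2125 and 2081 in the WT libraries, with a smaller difference and a WT replicate 1 close to the mutant values (-0.41 ± 0.12, limma adjusted p = 0.0288). The GBP1 call was lost without mutant replicate 2 (adjusted p = 0.0552), mutant replicate 3 (0.0982), WT replicate 2 (0.116) or WT replicate 3 (0.108). Each promoter held an ISRE core.
MX1 (chr21:41420559-41420588, plus strand): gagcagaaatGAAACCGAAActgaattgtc
GBP1 (chr1:89065316-89065345, minus strand): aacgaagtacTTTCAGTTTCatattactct

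The IFITM proteins sit in cell membranes and hinder the fusion of virus and cell, IFITM3 mainly in endosomes and IFITM1 mainly at the surface. All 3 fell, by less than IFIT1, IFIT2, IFIT3 and the OAS genes did. IFITM1 had 220.0, 214 and 206 normalised reads in the mutant and 321, 420.3 and 418 in the WT libraries (-0.85 ± 0.13, limma adjusted p = 0.00146). IFITM2 had 590.3, 721 and 712 in the mutant and 907, 973 and 1031 in the WT libraries (-0.53 ± 0.10, limma adjusted p = 0.00446). IFITM3, the most abundant of all 44 members per length, had 3548, 3826 and 3743 in the mutant and 4393, 5094 and 4658 in the WT libraries (-0.35 ± 0.07, limma adjusted p = 0.00787). In none of these genes did the groups overlap. The genes are close paralogues within 20 kb of chromosome 11, and in GENCODE release 29 the exons of IFITM1 and IFITM2 share 351 bases on the same strand, so reads may have been split between them and the single values are uncertain. Exons of the noncoding gene AC136475.5 on the other strand share 287 bases with IFITM3, or 21.3% of its exons, so the IFITM3 count is uncertain too. BST2, or tetherin, holds budding virus particles on the cell surface, and was nearly level: it had 1224, 1217 and 1219 in the mutant and 1214, 1303 and 1187 in the WT libraries and did not pass (-0.02 ± 0.07, limma adjusted p = 0.878). The BST2 promoter held ISRE cores, as those of IFITM1 and IFITM3 did.
IFITM1 (chr11:313990-314019, plus strand): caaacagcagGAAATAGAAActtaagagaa
IFITM1 (chr11:314024-314053, plus strand): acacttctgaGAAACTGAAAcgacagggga
IFITM3 (chr11:320893-320922, minus strand): caaatgccagGAAAAGGAAActgttgagaa
IFITM3 (chr11:320876-320905, minus strand): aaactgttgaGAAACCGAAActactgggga
BST2 (chr19:17405738-17405767, minus strand): tttctggGAAACTGAAACTGAAAacctaat

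ISG15 is a ubiquitin-like protein that UBE2L6, its E2 enzyme, and the E3 ligase HERC5 attach to other proteins, and that USP18 removes. Of these genes and HERC6, the closest relative of HERC5, 4 of 5 fell. ISG15 (ENSG00000187608, chromosome 1, 1001138 to 1014540) had 453, 613 and 553 normalised reads in the mutant and 955, 1579.9 and 1222 in the WT libraries (-1.19 ± 0.18, limma adjusted p = 0.00158). HERC5 had 161, 165 and 163 in the mutant and 379, 399 and 376 in the WT libraries, with hardly any spread inside either genotype (-1.24 ± 0.10, limma adjusted p = 4.98e-05). HERC6, next to HERC5 on chromosome 4, had 391, 396 and 426 in the mutant and 644, 874 and 741 in the WT libraries (-0.89 ± 0.12, limma adjusted p = 0.000764). UBE2L6 had 1502, 1603 and 1482 in the mutant and 1761, 2046 and 2013 in the WT libraries, a small difference (-0.34 ± 0.08, limma adjusted p = 0.0111) that did not pass without WT replicate 2 (adjusted p = 0.058) or WT replicate 3 (0.0519). USP18, which also restrains the interferon receptor, had 77.04, 78.8 and 111 in the mutant and 113, 97.8 and 140.2 in the WT libraries. It did not pass and its groups overlapped (-0.40 ± 0.20, limma adjusted p = 0.166), but it passed with the replicate block (adjusted p = 0.0321). USP18 has near-identical copies on chromosome 22, so its count is uncertain. ISG15 and HERC5 carried ISRE cores that ran into one another.
ISG15 (chr1:1013377-1013406, plus strand): gcctcggGAAAGGGAAACCGAAActgaagc
HERC5 (chr4:88456987-88457016, plus strand): attacagTTTCCTTTTCCTTTTCgattccg
HERC5 (chr4:88457035-88457064, plus strand): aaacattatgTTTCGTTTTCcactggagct

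All 5 members around ADP-ribosylation fell, by similar sizes. PARP9 forms a complex with the ubiquitin ligase DTX3L, and PARP10, PARP12 and PARP14 transfer single ADP-ribose units to proteins. PARP14 had 2192, 1373 and 1312 normalised reads in the mutant and 3405, 3311 and 2934 in the WT libraries (-1.02 ± 0.18, limma adjusted p = 0.00312). Mutant replicate 1 was far above the other mutant libraries, yet below all WT libraries. DTX3L had 1188, 886 and 846 in the mutant and 1535, 1957 and 1675 in the WT libraries (-0.83 ± 0.14, limma adjusted p = 0.00267). PARP12 had 559.7, 398 and 405 in the mutant and 780.4, 721 and 706 in the WT libraries (-0.71 ± 0.13, limma adjusted p = 0.00464). PARP9 had 847, 724 and 734 in the mutant and 982, 1328 and 1275 in the WT libraries (-0.63 ± 0.12, limma adjusted p = 0.00566). PARP10 averaged 614 ± 94.1 in the mutant and 914 ± 86.2 in the WT libraries (SD, n = 3 each; -0.58 ± 0.12, limma adjusted p = 0.00748). In all 5 genes mutant replicate 1 was the highest mutant library. PARP9, DTX3L and PARP14 are neighbours on chromosome 3, and PARP9 and DTX3L point away from each other with exons that share 217 bases on opposite strands. The sources used here do not state whether counting used the strand, so reads of that stretch cannot be assigned with certainty.
DTX3L (chr3:122564322-122564351, plus strand): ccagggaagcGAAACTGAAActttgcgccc
PARP14 (chr3:122680800-122680829, plus strand): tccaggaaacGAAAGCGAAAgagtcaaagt
PARP12 (chr7:140062942-140062971, minus strand): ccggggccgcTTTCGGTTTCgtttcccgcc

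Of the TRIM ubiquitin ligases, TRIM22 and TRIM5 fell and TRIM21 did not pass. TRIM22, which restricts transcription of several viruses, had 286, 228 and 237 normalised reads in the mutant and 419, 479.7 and 447 in the WT libraries (-0.84 ± 0.12, limma adjusted p = 0.000923). TRIM5, which recognises retroviral capsids, had 426, 390.1 and 400.2 in the mutant and 583, 597 and 593 in the WT libraries (-0.54 ± 0.08, limma adjusted p = 0.00133). The groups were clearly separate in both, with WT values of TRIM5 that differed by little. TRIM21, the cytosolic antibody receptor, had 312, 346 and 314 in the mutant and 315, 371 and 360.1 in the WT libraries, which overlapped (-0.10 ± 0.10, limma adjusted p = 0.481). Its promoter held ISRE cores that ran into one another, and that of TRIM5 held a single core.
TRIM21 (chr11:4393663-4393692, minus strand): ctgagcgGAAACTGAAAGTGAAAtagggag
TRIM5 (chr11:5685082-5685111, minus strand): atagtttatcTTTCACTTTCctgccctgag

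Among the genes named IFI, 4 of 5 fell. IFI44 (ENSG00000137965, chromosome 1, 78649796 to 78664078) had 161, 129 and 134 normalised reads in the mutant and 535, 842 and 582 in the WT libraries, a WT mean 4.62 times the mutant mean (-2.18 ± 0.18, limma adjusted p = 6.32e-05). IFI6, a membrane protein of the endoplasmic reticulum that limits flavivirus replication, had 529, 469.8 and 501 in the mutant and 1025, 1092 and 1107 in the WT libraries (-1.10 ± 0.08, limma adjusted p = 3.45e-05). Both genes separated the genotypes without overlap. IFI44L, the neighbour and paralogue of IFI44, was expressed at a low level, with 25.1, 15.9 and 17.4 in the mutant and 39.02, 32.6 and 44.6 in the WT libraries (-0.97 ± 0.26, limma adjusted p = 0.02). That call was lost without mutant replicate 2 (adjusted p = 0.074), mutant replicate 3 (0.067), WT replicate 1 (0.0605) or WT replicate 3 (0.0801). IFI35, a partner of NMI, had 426, 460.4 and 427 in the mutant and 577, 628 and 579 in the WT libraries (-0.44 ± 0.08, limma adjusted p = 0.00457). IFI27, a small mitochondrial protein and one of the most induced genes in infected tissue, was low in both genotypes, with 63.1, 35.6 and 36.8 in the mutant and 52.6, 43.1 and 35.05 in the WT libraries, and did not pass (0.02 ± 0.27, limma adjusted p = 0.964). The IFI6 promoter held 3 ISRE cores, and the windows around the pair of cores in the IFI44L promoter were identical over all 30 bases.
IFI6 (chr1:27672329-27672358, minus strand): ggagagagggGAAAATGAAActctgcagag
IFI6 (chr1:27672288-27672317, minus strand): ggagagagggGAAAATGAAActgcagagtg
IFI6 (chr1:27672266-27672295, minus strand): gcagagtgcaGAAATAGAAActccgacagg
IFI44L (chr1:78620274-78620303, plus strand): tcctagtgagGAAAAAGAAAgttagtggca
IFI44L (chr1:78620365-78620394, plus strand): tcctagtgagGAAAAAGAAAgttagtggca
IFI27 (chr14:94110618-94110647, plus strand): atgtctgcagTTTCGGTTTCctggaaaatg

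Of the 5 members that act on RNA, 1 fell, 1 rose and 3 did not pass. DDX60, a helicase that promotes signalling by RIG-I-like sensors, had 201, 175 and 163 normalised reads in the mutant and 534, 787 and 552 in the WT libraries (-1.77 ± 0.16, limma adjusted p = 0.000121). PNPT1, the polynucleotide phosphorylase of mitochondria, had 1845, 2167 and 2115 in the mutant and 1577, 1566 and 1655 in the WT libraries, so every mutant library was higher than every WT library (0.35 ± 0.08, limma adjusted p = 0.00974). EIF2AK2, the kinase PKR that halts translation on double-stranded RNA, had 5149, 4402 and 4358 in the mutant and 5032, 5530.2 and 5467 in the WT libraries (-0.21 ± 0.08, limma adjusted p = 0.0894). Mutant replicate 1 alone reached into the WT range, and EIF2AK2 passed without it (log2 fold change -0.29, adjusted p = 0.00304) and with the replicate block (adjusted p = 0.0254). ADAR, which edits adenosine to inosine in double-stranded RNA, had 10525, 10154 and 10183 in the mutant and 10614, 11605 and 11628 in the WT libraries (-0.13 ± 0.07, limma adjusted p = 0.167). The ADAR groups did not overlap, but WT replicate 1 lay close to the mutant values. Its counts do not separate the interferon-induced long isoform from the constitutive one. ISG20, an exonuclease, had 224, 199.7 and 219 in the mutant and 222, 291 and 230.5 in the WT libraries, which overlapped (-0.20 ± 0.13, limma adjusted p = 0.277). The promoters of DDX60, EIF2AK2 and ISG20 held ISRE cores.
DDX60 (chr4:168318821-168318850, minus strand): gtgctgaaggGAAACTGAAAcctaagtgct
DDX60 (chr4:168318786-168318815, minus strand): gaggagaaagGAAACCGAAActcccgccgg
EIF2AK2 (chr2:37156967-37156996, minus strand): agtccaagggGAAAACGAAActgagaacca
ISG20 (chr15:88638937-88638966, plus strand): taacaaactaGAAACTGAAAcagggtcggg

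SAMD9 and SAMD9L, paralogues side by side on chromosome 7 that restrict poxviruses and cell growth, were the only subfamily with no fall. SAMD9 had 8903, 10217 and 9729.6 normalised reads in the mutant and 4959, 7626 and 7125 in the WT libraries (0.57 ± 0.15, limma adjusted p = 0.0197). It rose, though without mutant replicate 2 (adjusted p = 0.0696) or mutant replicate 3 (0.059) it did not pass. SAMD9L had 1659.6, 1437 and 1365 in the mutant and 1071, 1456 and 1207 in the WT libraries, which overlapped (0.26 ± 0.12, limma adjusted p = 0.133); it passed in edgeR with the replicate block (adjusted p = 0.0416) but not in limma with it (0.0801). WT replicate 1 was the lowest library in both genes. The nearest tested coding genes on either side, CDK6 (0.52 ± 0.07, limma adjusted p = 0.000581) and VPS50 (0.54 ± 0.07, limma adjusted p = 0.000813), rose as well; they were singled out after their values had been seen. The SAMD9 promoter held an ISRE core too.
SAMD9 (chr7:93118096-93118125, minus strand): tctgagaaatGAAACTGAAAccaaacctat

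XAF1, PLSCR1 and SP110 fell among the remaining members, and IRF1 did not pass. XAF1, an antagonist of the apoptosis inhibitor XIAP, had 46.4, 22.5 and 13.3 normalised reads in the mutant and 127, 105 and 91.3 in the WT libraries (-2.10 ± 0.39, limma adjusted p = 0.00437). The mutant libraries differed widely among themselves, all below WT. Exons of PRAL on the other strand share 2535 bases with XAF1, or 38.3% of its exons, so its count is uncertain. PLSCR1, a phospholipid scramblase that hinders virus entry, had 734, 641 and 682 in the mutant and 913, 981 and 995 in the WT libraries (-0.49 ± 0.08, limma adjusted p = 0.00236). SP110, a nuclear body protein, had 429, 433 and 425 in the mutant and 495, 611 and 511 in the WT libraries (-0.32 ± 0.10, limma adjusted p = 0.0382). Its call was lost without mutant replicate 2 (adjusted p = 0.101), mutant replicate 3 (0.108), WT replicate 2 (0.142) or WT replicate 3 (0.0718), and an antisense gene shares exons with it. IRF1, a transcription factor that drives many of these genes, had 1827, 1271 and 1285 in the mutant and 1724, 1938 and 1531 in the WT libraries (-0.26 ± 0.15, limma adjusted p = 0.217). Its mutant replicate 1 was high, and without it IRF1 passed (log2 fold change -0.43, adjusted p = 0.0023). The exons of C5orf56 on the other strand share 1716 bases with IRF1, so its count is uncertain too.
PLSCR1 (chr3:146544667-146544696, minus strand): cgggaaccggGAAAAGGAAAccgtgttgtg

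The members ranged widely in level. Per kb of exon, on the scale of normalised reads per kb of the GENCODE 29 exon union, IFITM3 was highest with 2749 ± 106 in the mutant and 3498 ± 262 in the WT libraries (SD, n = 3 each). In WT cells ISG15 (1331 ± 333), IFI6 (1242 ± 50.1), ADAR (1164 ± 59.7) and BST2 (1103 ± 53.95) came next, and neighbours among these differed by little more than their SDs or by less. In the mutant cells the order behind IFITM3 was SAMD9 (1403 ± 96.9), BST2 (1090.4 ± 3.33), ADAR (1062 ± 21.3), UBE2L6 (696 ± 29.4), IFI6 (578 ± 34.3) and ISG15 (573 ± 86.01), of which BST2 and ADAR, and IFI6 and ISG15, were close within their spread. IFI44L was lowest in WT cells with 3.78 ± 0.587, against 1.90 ± 0.478 in mutant cells, and RSAD2 was lowest in mutant cells with 0.452 ± 0.624, against 38.7 ± 13.97 in WT cells. The exon union counts the exons of all annotated transcripts, so a gene with many rare exons is set too low.

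The libraries of a genotype took uneven shares of the highest and lowest values. Mutant replicate 1 was the highest mutant library in 27 of the 44 members (61.4%), beside 42.5% of all genes, and mutant replicate 3 was the highest in 3. WT replicate 2 was the highest WT library in 27 members (61.4%), beside 28.1% of all genes, and WT replicate 1 was the lowest in 30 (68.2%), beside 41.9%. The median difference of the members from the WT mean, on the log2 scale, was -0.54, -0.80 and -0.75 in mutant replicates 1, 2 and 3, and -0.11, 0.079 and -0.0036 in the WT replicates of those numbers. Between same-numbered libraries of the 2 genotypes, this median differed least for those numbered 1, and all mutant libraries lay below all WT libraries. What set the libraries numbered 1 apart was not tested.

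**Figure D3:**
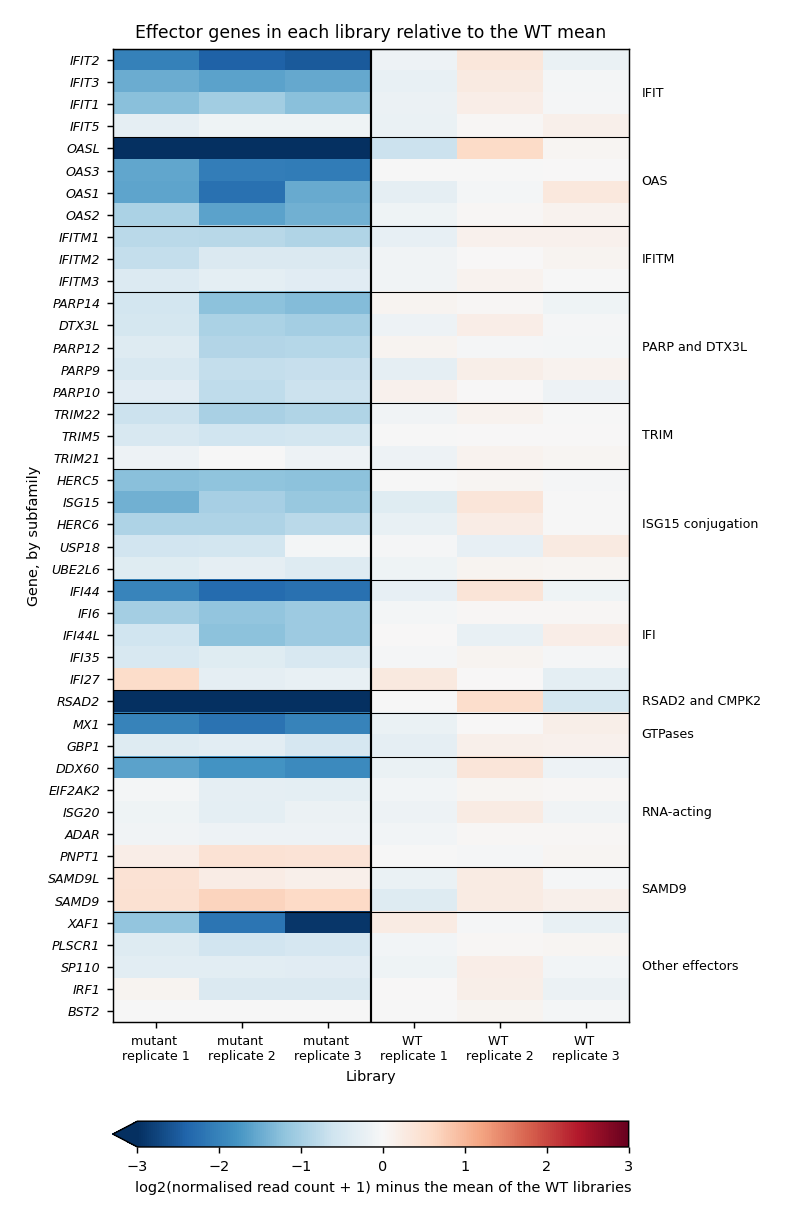
Log2(normalised read count + 1) minus the mean of the WT libraries (colour) for the 44 members (rows, by subfamily) in the mutant libraries (left) and the WT libraries (right); values below -3 take the darkest blue. Most rows are blue in the mutant columns; SAMD9, SAMD9L and PNPT1 are red in all of them, IFI27 is red and IRF1 faintly so in mutant replicate 1, and BST2 is pale, and WT replicate 2 is the reddest WT column.

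The genomic surroundings were described from the nearest tested coding genes on either side of each member or cluster of members. Of 62 such flanking genes 15 fell and 8 rose, with a median log2 fold change of -0.02, beside 16.6% and 16.0% of all genes. Some of these neighbours are themselves interferon-induced, such as MX2 beside MX1 and GBP2 beside GBP1. For the 8 clusters with several members, 2 of 16 flanking genes fell, FAS and PTGFR, and 2 rose, the neighbours of the SAMD9 pair. Beside the IFIT cluster FAS, which encodes a death receptor, fell (-0.45 ± 0.11, limma adjusted p = 0.0171) and PANK1 did not pass (-0.12 ± 0.11, limma adjusted p = 0.46). The FAS call was lost without mutant replicate 2 (adjusted p = 0.0675), mutant replicate 3 (0.0669), WT replicate 1 (0.063) or WT replicate 2 (0.0701). The PTGFR call was lost without mutant replicate 2 (adjusted p = 0.0895), mutant replicate 3 (0.147), WT replicate 1 (0.112) or WT replicate 2 (0.155). Places where both neighbours passed in 1 direction were looked for after the values had been seen. Both were lower beside ISG15 (HES4 -2.16 ± 0.13, AGRN -0.76 ± 0.16) and SP110 (SLC16A14 -0.97 ± 0.14, SP140L -0.26 ± 0.08). Both were higher beside BST2 (GTPBP3 0.55 ± 0.12, MVB12A 0.59 ± 0.08) and ADAR (UBE2Q1 0.28 ± 0.07, KCNN3 1.82 ± 0.26), which did not pass, and beside the SAMD9 pair. Beside OAS1, OAS3 and OAS2 neither PTPN11 (0.11 ± 0.08) nor CFAP73 (0.02 ± 0.44) passed (limma adjusted p = 0.301 and 0.973).

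Sensors and relay factors of the pathway were set beside the effectors. Of 14 listed nucleic acid sensors and adaptors 7 fell and 1 rose, with a median log2 fold change of -0.41; with the replicate block 8 fell and 2 rose. Among all genes 16.6% fell and 16.0% rose, and 24.6% and 25.1% with the block. IFIH1 (MDA5), a sensor of long double-stranded RNA, had 171, 113 and 104 normalised reads in the mutant and 358, 470.4 and 338 in the WT libraries (-1.60 ± 0.21, limma adjusted p = 0.000678). TMEM173, which encodes the DNA-pathway adaptor STING, had 645, 641 and 658 in the mutant and 1355, 1495 and 1270.3 in the WT libraries (-1.08 ± 0.08, limma adjusted p = 3.93e-05). DHX58, a relative of RIG-I, averaged 344 ± 30.9 in the mutant and 587 ± 37.96 in the WT libraries (-0.77 ± 0.10, limma adjusted p = 0.00067). TICAM1, the adaptor of TLR3, was the one that rose, to 670.2, 757 and 798 in the mutant, against 433, 433 and 458 in the WT libraries (0.74 ± 0.09, limma adjusted p = 0.000496). MAVS, the mitochondrial adaptor of the RNA sensors, averaged 11820.1 ± 1147 in the mutant and 9807 ± 616 in the WT libraries. It narrowly did not pass (0.27 ± 0.09, limma adjusted p = 0.0517), but it passed without mutant replicate 1 (adjusted p = 0.00146) and with the replicate block (0.000713). MAVS also passed in limma with TMM (adjusted p = 0.0463) or upper-quartile scaling (0.0434), in DESeq2 (0.0238) and in edgeR (0.0445), though not under every alternative.

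Receptors, JAK kinases, STAT and IRF factors went both ways. Of 16 listed JAK-STAT and IRF genes 3 rose and 3 fell, with a median of -0.14; 8 fell and 4 rose with the replicate block, 5 fell without mutant replicate 1, and 6 rose and 8 fell without both libraries numbered 1. The 3 of 16 each way were near the 16.0% and 16.6% of all genes. With the block 25.1% of all genes rose and 24.6% fell. Calls over all genes also grew without both libraries numbered 1, where 27.9% rose and 26.8% fell. When mutant replicate 1 was left out, 4291 of the 17893 genes tested fell. IRF2, a repressor of many interferon targets, had 443, 315 and 358 normalised reads in the mutant and 595, 587 and 527 in the WT libraries (-0.63 ± 0.13, limma adjusted p = 0.00727). SOCS1 and SOCS3, feedback inhibitors of JAK signalling, rose, with log2 fold changes of 0.74 ± 0.18 and 0.49 ± 0.11 (limma adjusted p = 0.0133 and 0.00905), though SOCS1 did not pass without mutant replicate 2 (adjusted p = 0.0603). The most abundant that did not pass was the phosphatase gene PTPN11, with 12898 ± 785 in the mutant and 11946 ± 618 in the WT libraries. Of 7 listed interferon ligands and receptors 1 rose, IFNGR1, the ligand-binding chain of the interferon-gamma receptor, which had 1470.3, 1549 and 1599.8 in the mutant and 1209, 1172 and 1156 in the WT libraries (0.38 ± 0.07, limma adjusted p = 0.00289). IFNAR1, a chain of the type I interferon receptor, had 3312, 3484 and 3582 in the mutant and 3780.4, 3747 and 3519.9 in the WT libraries and did not pass (-0.09 ± 0.06, limma adjusted p = 0.318). With the replicate block 2 of these rose and 1 fell. The interferon-beta gene IFNB1 was not among the listed genes and is not analysed here. An interferon gene that was listed, IFNE, had 249, 149 and 137 in the mutant and 140, 101 and 94.5 in the WT libraries. Its groups overlapped and it did not pass (0.64 ± 0.25, limma adjusted p = 0.0818). IFNE passed as higher in the mutant under 5 of 19 alternatives, among them limma with the replicate block (adjusted p = 0.000754) and DESeq2 (0.0459).

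A list of 40 other interferon-induced genes had 15 that fell and 1 that rose, with a median log2 fold change of -0.28, where 16.6% of all genes fell and 16.0% rose. GBP4 had the largest fall, with 217, 102 and 76.8 normalised reads in the mutant and 762, 1069 and 619 in the WT libraries (-2.73 ± 0.35, limma adjusted p = 0.000715). MX2, the paralogue of MX1 that restricts HIV, had 64.05, 55.3 and 42.99 in the mutant and 184, 208 and 218 in the WT libraries (-1.91 ± 0.18, limma adjusted p = 0.000132). EPSTI1 averaged 129.5 ± 26.6 in the mutant and 377 ± 29.96 in the WT libraries, and APOL6 averaged 1707 ± 381 in the mutant and 2923 ± 467 in the WT libraries (limma adjusted p = 0.000238 and 0.00664). The gene that rose was PML, which organises nuclear bodies (0.37 ± 0.08, limma adjusted p = 0.0096). RNF213, the most abundant that did not pass, averaged 13579 ± 2698 in the mutant and 12402 ± 482 in the WT libraries. The counts of this list depended on the libraries: 23 fell and 5 rose with the replicate block and 26 fell and 6 rose without both libraries numbered 1, against 24.6% and 25.1%, and 26.8% and 27.9%, of all genes. Without mutant replicate 2, mutant replicate 3 or WT replicate 2, 8, 8 and 7 fell, and without mutant replicate 1, 5 rose. Calls over all genes moved the same way under these settings. Falls over all genes went from 2963 to 2115, 2167 and 2036, and rises from 2866 to 4415 without mutant replicate 1.

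**Figure D4:**
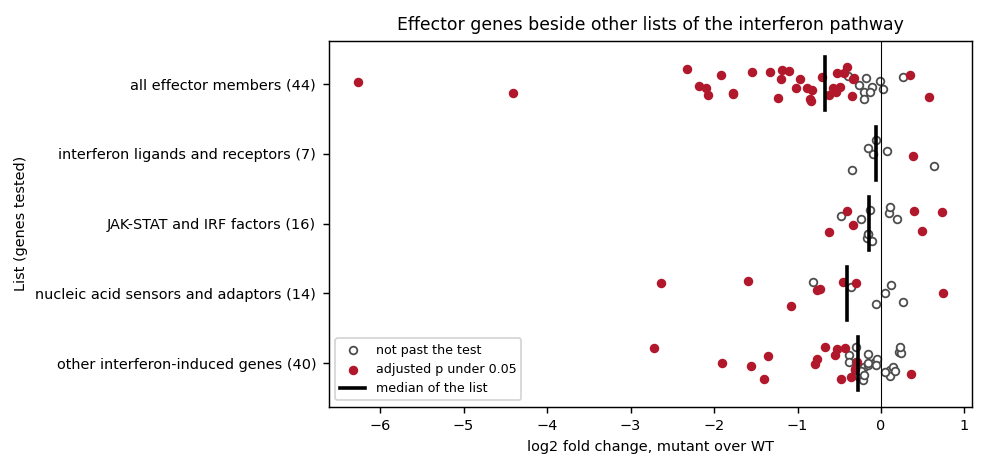
Log2 fold change, mutant over WT (x axis), of each tested gene in the effector list and in other lists of the interferon pathway (y axis, number tested in brackets); filled points have a limma adjusted p under 0.05 and black bars are medians. The effector median (-0.67) lies farthest left, and the sensors (-0.41) and other interferon-induced genes (-0.28) lie between it and the ligands and receptors. The lists were chosen with earlier results of these data known, so their order is not independent of the values.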

How the data were processed

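RNA-seq values of 6 LX-2 libraries came from 1 table. Per the labels' protocols, poly(A) RNA was sequenced from random-primed cDNA, paired-end, with an Illumina instrument. Tools named, without roles, in the submitters' processing notes are featureCounts, Subread 1.5.2, STAR 2.5.2b, Trimmomatic 0.36 and DESeq2, and the build is GRCh38; the sources used here do not state annotation, strand or multi-mapping settings. The authors deposited a signal per gene and library, with no unit named. All values (100%) of a library were multiples of 1 step, to within 0.01 of a read, as gene counts divided by a size factor (0.859 to 1.10) are. Whole reads were recovered from these steps. The authors' deposited log2 fold changes and the authors' deposited p-values and adjusted p-values served only as an alternative.

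The main test was limma-trend (limma 3.58.1, R 4.3.3, trend and robust) on log2(value + 1) for the 17893 genes whose mean reached 10, fitted on genotype alone, with Benjamini-Hochberg adjustment over all of them. This scale understates changes of low genes. Members and lists were chosen with earlier results of these data known. All members are accounted for; in the other lists up to 4 changed genes of largest change, with a mean reaching 100 in the higher genotype, and the most abundant that did not pass, are named; 1 gene that this rule would name is not reported here. Replicates differed by more than counting noise (chi-square per gene 2.73 to 35.2), so none were merged. Deviations of same-numbered libraries correlated at 0.545, 0.189 and 0.276, all over 0.1, so the fit with the number as a block is printed where it changes a call; the main test has no block. This rests on these data, as no batch is stated, and unlike numbers correlated too (mutant 2 with WT 3 at 0.299, mutant 3 with WT 2 at 0.168). Fits were tested on simulated data. Alternatives were the replicate block, leaving out libraries, TMM and upper-quartile scaling, other filters and pseudocounts, DESeq2 1.42.0 and edgeR 4.0.16 on recovered reads, the authors' columns and an adjusted p under 0.01. Positions are those of GENCODE 29 and promoters those of RefSeq. In normalised units 3 reads are worth 2.72 to 3.49.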

Additional observations from a re-analysis of the deposited data

How the results depend on the processing

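The number of members that fell was 28 to 37 over the 19 alternatives, and 28 to 34 over those that left out 1 library; the number that rose was 1 to 3, and 1 to 2 with 1 library left out. With an adjusted p under 0.01, 1 member rose. Of the 32 members that fell, 28 kept their call under every alternative that tested them, as did PNPT1; the others were UBE2L6, IFI44L, GBP1, SP110 and SAMD9. No member past the test changed direction. Over all genes, 1513 rose and 1799 fell with an adjusted p under 0.01, and 4989 rose and 4788 fell without both libraries numbered 1. With the replicate block 4494 rose, and 4640 with edgeR and the replicate block. Against 2866 rises and 2963 falls in the test reported, leaving out 1 library gave 1749 to 4415 rises and 2036 to 4291 falls. Rises numbered 4415 without mutant replicate 1, 1749 without mutant replicate 2, 1829 without mutant replicate 3 and 1864 without WT replicate 2. On the recovered reads edgeR called 3007 rises and 2872 falls, and DESeq2 2961 and 2924. In limma the replicate block changed no other member's call than those of IFIT5, USP18 and EIF2AK2; in edgeR with the block USP18, EIF2AK2 and SAMD9L passed and IFIT5 did not. The cause was not tested. Low levels limit RSAD2, OAS1, IFI44L, OASL and XAF1, whose mutant libraries held 7 to 87 reads in total.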
